A study of Homo sapiens with 6 samples.

Results

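Stretches of accessible chromatin inside genes, away from the annotated gene ends, were described in U937 cells, a human monocytic line. ATAC-seq, which inserts sequencing adapters into open DNA with the transposase Tn5, had been run on 3 control lines and 3 ΔNSPs clones. The peak intervals of the 6 libraries on chromosomes 1 to 22 and X were merged into 32817 regions. A region was kept where at least 2 of the 3 clones had a peak, both ends of every GRCh38 RefSeq protein-coding or lncRNA gene lay over 1000 bp away, and its midpoint fell inside such a gene. These criteria gave 1914 gene-body regions of the 32817. The same call in 2 clones held for 20.9% of all merged regions, for 14.4% of the 13254 gene-body regions, for 36.0% of regions within 1000 bp of a gene end and for 11.2% of intergenic regions. The regions were chosen by the clones' own peak calls, so their number and their presence in the clones are given as a description, with no test.

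The clones were depleted of CTSG, ELANE and PRTN3 together, the genes of 3 serine proteases stored in the azurophil granules of myeloid cells. The control lines had been transduced with control plasmids, and the ΔNSPs lines with their own plasmids. Each ΔNSPs library came from an independent clone, so it carries whatever is private to that clone. Cells of both groups were grown under selection with 500 µg/ml geneticin. All were treated with 200 units/ml DNase at 37 °C for 30 minutes and cryopreserved in medium with 5% DMSO before ATAC-seq at a service laboratory, per the labels' protocols. The labels do not say whether the 3 control lines are clones. No labels tie a control line to a clone of the same number.

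Introns of active genes carry many of the enhancers that bind lineage transcription factors, in myeloid cells chiefly PU.1, C/EBP, RUNX and AP-1 family proteins. They also hold alternative promoters, at which shorter transcripts of the same gene begin. An accessible stretch inside a gene may act on that gene, on a neighbour or on none, so a host gene below is a position and not a target. Exon and intron structure was not used here.

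Of the 12 gene-body regions of all 3 clones with the highest ranks, 6 lay at a transcript start that RefSeq annotates inside the gene. The sequences before 5 of these starts are shown because they show that a region far from the outer ends of a gene may still be a promoter by its annotation. Each line gives the 250 bases before the start, 5′ to 3′ on the gene's strand, from RefSeq GRCh38.p14. Capitals mark the motifs searched on both strands: the CCAAT box (CCAAT), the GC box (GGGCGG), a PU.1-type ETS motif (AGGAAGT) and an AP-1 motif (TGANTCA), besides RUNX (TGTGGTT), C/EBP (TTGCNNA), CTCF core (AGGGGGC) and ETS (CCGGAAG) motifs, which none of the 5 holds. The motifs AGGAAGT and CCGGAAG both contain GGAAG but cannot share it.
THRAP3: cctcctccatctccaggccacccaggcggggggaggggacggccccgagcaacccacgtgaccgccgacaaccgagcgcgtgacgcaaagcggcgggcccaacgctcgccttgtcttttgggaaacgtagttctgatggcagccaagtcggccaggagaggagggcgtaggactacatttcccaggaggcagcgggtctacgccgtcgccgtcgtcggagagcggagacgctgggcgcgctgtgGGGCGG
IDI1: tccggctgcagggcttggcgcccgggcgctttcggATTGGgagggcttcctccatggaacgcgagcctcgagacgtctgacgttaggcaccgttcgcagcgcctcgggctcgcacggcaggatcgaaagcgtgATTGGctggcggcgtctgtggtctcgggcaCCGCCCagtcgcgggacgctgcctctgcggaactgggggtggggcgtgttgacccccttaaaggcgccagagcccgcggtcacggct
GBF1: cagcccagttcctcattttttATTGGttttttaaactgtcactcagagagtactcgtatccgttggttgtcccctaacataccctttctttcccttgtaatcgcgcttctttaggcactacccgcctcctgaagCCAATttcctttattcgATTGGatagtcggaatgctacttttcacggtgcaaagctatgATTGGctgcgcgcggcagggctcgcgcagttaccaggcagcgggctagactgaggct
SIN3A: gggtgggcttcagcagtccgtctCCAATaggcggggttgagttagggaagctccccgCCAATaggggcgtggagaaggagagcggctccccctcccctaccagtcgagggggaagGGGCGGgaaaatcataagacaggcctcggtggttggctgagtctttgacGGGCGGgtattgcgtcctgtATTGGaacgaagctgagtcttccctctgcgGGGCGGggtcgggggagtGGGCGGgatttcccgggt
PPCDC: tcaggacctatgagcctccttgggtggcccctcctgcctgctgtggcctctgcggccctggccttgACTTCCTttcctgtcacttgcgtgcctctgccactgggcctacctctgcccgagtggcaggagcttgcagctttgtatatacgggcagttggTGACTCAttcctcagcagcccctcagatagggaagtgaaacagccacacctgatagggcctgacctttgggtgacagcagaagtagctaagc
The THRAP3 sequence lies at chr1:36224193-36224442 on the plus strand and the IDI1 sequence at chr10:1049120-1049369 on the minus strand. The GBF1 sequence lies at chr10:102245282-102245531 on the plus strand. The SIN3A sequence is at chr15:75451691-75451940 on the minus strand, and the PPCDC sequence is at chr15:75043036-75043285 on the plus strand. The THRAP3 sequence holds 1 GC box. The IDI1, GBF1 and SIN3A sequences hold 2, 4 and 3 CCAAT boxes, and SIN3A also has 4 GC boxes and IDI1 has 1. PPCDC differed from the others: it has 4 CpG dinucleotides against 14 to 31 in the other 4, no CCAAT or GC box, and both a PU.1-type ETS and an AP-1 motif. A match of letters is a description and does not show that a factor was bound.

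Of the 1914 gene-body regions, 1791 had a peak in clone 1, 1880 in clone 2 and 431 in clone 3. The lists of these clones held 14262, 24977 and 2188 peaks. The 3 control lists held 11, 4 and 2 peaks, against which 1, 0 and 0 of the gene-body regions had a peak. Read depth per library is unknown from peak lists, and depth and library quality cannot be told apart from the genotype as the origin of this gap. The shared set is mainly one of clones 1 and 2: 1483 regions (77.5%) were found in these alone, 274 (14.3%) in all 3 clones, 123 in clones 2 and 3 and 34 in clones 1 and 3. Among shared regions of all classes, 18.2% had a peak in all 3 clones. Of all 13254 gene-body regions 2.07% had one, against 3.82% of all merged regions. Without clone 3, the set held 1757 regions. It fell to 397 without clone 1 and to 308 without clone 2, with both remaining clones required.

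**Figure D1:**
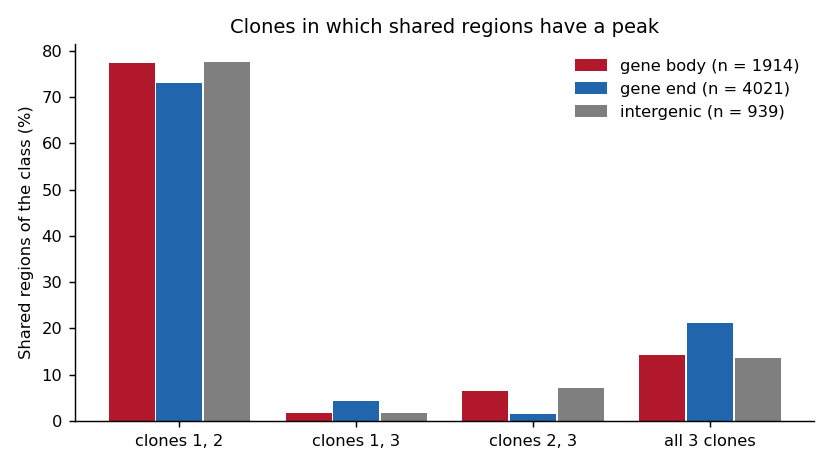
Share of shared regions (vertical axis, %) by the clones in which they have a peak, for gene-body, gene-end and intergenic regions. Regions of clones 1 and 2 alone make up 77.5% of gene-body, 73.0% of gene-end and 77.6% of intergenic shared regions.

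Because regions were formed from overlapping peaks, their summits had to lie close together. Summits, the points of highest pile-up, lay a median of 50 bp apart between clones 1 and 2, 49 bp between clones 1 and 3 and 52 bp between clones 2 and 3, against 53, 54 and 63 bp in shared gene-end regions. The fold enrichment of a region over its local background, as the authors' peak caller gave it, followed less closely from clone to clone: across regions, Spearman's rank correlation was 0.30 for clones 1 and 2 (1757 regions), 0.42 for clones 1 and 3 (308) and 0.40 for clones 2 and 3 (397). These are correlations across regions of the same libraries, which are not independent replicates. Regions were short, with a median merged width of 263 bp and a largest width of 1504 bp.

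A single gene-body region had a peak in a control line. It lies in PCBP3, a poly(C)-binding RNA-binding protein gene, at chr21:45785329-45785528. Its fold enrichment was 4.62 in control line 1, 6.66 in clone 1 and 5.05 in clone 2, with no peak in clone 3 or in control lines 2 and 3. Among all merged regions, 0.0427% had a peak in a control line.

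The 12 regions of all 3 clones with the highest ranks of −log10 q in each clone's list were led by PDK1-AS1, a lncRNA gene, at chr2:172513811-172514324. Its fold was 2.74, 5.79 and 1.99 in clones 1, 2 and 3, and it stood on the highest background of the 12, so that a pile-up of 195, 329 and 176 reads lay over an expected 70.6, 56.0 and 88.0 reads. Clone 2 had the highest value here and clone 3 the lowest. These read numbers are heights at the summit, solved from the authors' fold and p, where fold is the pile-up plus 1 over the background plus 1. The region in THRAP3, a splicing and transcription cofactor gene, at chr1:36224111-36224499 had folds of 7.16, 5.22 and 2.98, the highest of the 12 in clone 1. In IDI1, whose enzyme isomerises isopentenyl diphosphate in sterol synthesis, the region at chr10:1048911-1049448 had folds of 4.46, 6.03 and 3.28.

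The region in PPCDC, which encodes an enzyme of coenzyme A synthesis, at chr15:75042929-75043371 had folds of 3.51, 9.59 and 2.77. Clone 2 stood highest there, with a pile-up of 124 reads over 12.03 expected. The regions in GBF1, an exchange factor of Golgi ARF proteins, and SIN3A, the scaffold of a histone deacetylase complex, were more even. GBF1 (chr10:102245215-102245575) had folds of 2.91, 2.97 and 2.61, and SIN3A (chr15:75451750-75452268) folds of 2.36, 3.74 and 3.19. ZNF444, a zinc finger gene, was the last of the 6 at an internal start, with folds of 3.45, 4.98 and 3.22 at chr19:56140675-56141211.

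The other regions of the 12 that are described had no annotated start within 1000 bp. STAB1, a scavenger receptor of macrophages, held one at chr3:52498305-52498991 with folds of 4.29, 6.43 and 3.50. The peaks of clone 2 (chr3:52498777-52498989) and clone 3 (chr3:52498347-52498648) did not overlap there, and the 601 bp peak of clone 1 joined them. The fold of clone 2 was the highest and that of clone 3 the lowest, but these 2 folds belong to different positions. The region in HOOK2, a linker of microtubules to organelles, at chr19:12789911-12790449 lay only 1037 bp from an end of JUNB, an AP-1 gene, and had folds of 4.17, 4.92 and 3.65. MAD1L1, a spindle checkpoint gene, had folds of 3.56, 6.72 and 3.02 at chr7:2076540-2077178, and the lncRNA gene LINC02910 folds of 4.86, 5.60 and 3.52 at chr20:60058301-60058727. Fold was highest in clone 2 in 10 of the 11 regions described and lowest in clone 3 in 10 of the 11, THRAP3 and SIN3A being the respective exceptions.

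**Figure D2:**
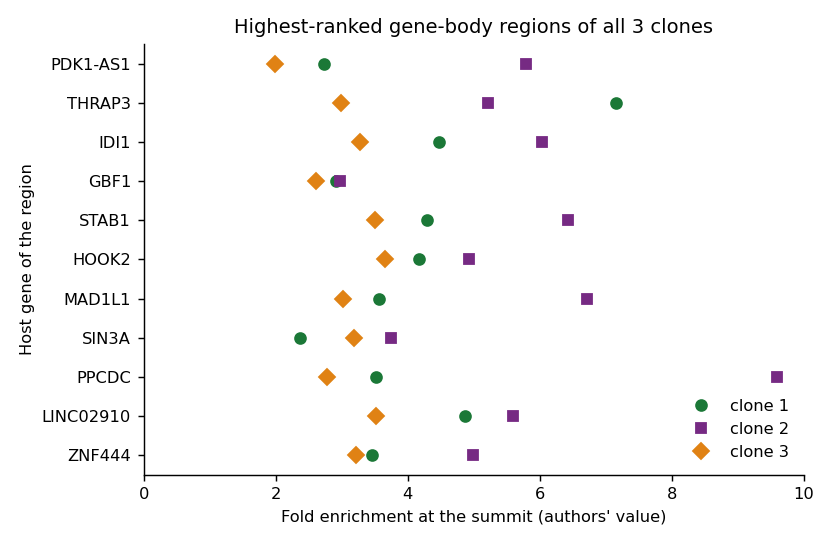
Fold enrichment at the summit (horizontal axis, the authors' values) of 11 of the 12 highest-ranked gene-body regions of all 3 clones, 1 row per host gene and 1 point per clone. Clone 2 reaches 9.59 at PPCDC and clone 1 reaches 7.16 at THRAP3, whereas clone 3 stays at or below 3.65.

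High folds also arose over very low backgrounds, as in the 5 regions ranked highest by the lower of their 2 highest clone folds. The largest of any gene-body region was in TCEA2, a transcription elongation factor gene, at chr20:64066058-64066308: 20.5 in clone 2, where 45 reads lay over 1.25 expected, and 6.83 in clone 3, with no peak in clone 1. The region in OR6J1, an olfactory receptor gene, at chr14:22638129-22639479 had folds of 7.19 and 6.92 in clones 1 and 2 from pile-ups of only 15 and 12 reads at the summit. Its merged interval spanned 1351 bp, wide for a set with a median of 263 bp. CAP1, which recycles actin monomers, had folds of 7.22 and 6.72 at chr1:40064948-40065256, LOC105378415 had 6.89 and 6.72 at chr10:88082912-88083083, and TRIP4, a transcription coactivator gene, had 6.63 and 7.46 at chr15:64430401-64430658. At both CAP1 and LOC105378415 the 6.72 of clone 2 came from 15 reads and 1.38 expected, with 1 added to each.

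Compared with the 4021 gene-end regions shared by clones, gene-body regions had smaller pile-ups over still lower backgrounds. The median pile-up was 27, 28 and 27 reads in clones 1, 2 and 3 in gene bodies, and 36, 33 and 34 reads at gene ends. The median background was 7.17, 5.92 and 7.19 reads in gene bodies against 9.65, 8.28 and 10.9 reads at gene ends. Accordingly the median fold was 3.43, 4.14 and 3.38 in gene bodies and 3.36, 3.69 and 2.95 at gene ends, higher in gene bodies in 3 of 3 clones. The mean difference was 0.312 ± 0.217 (SD, n = 3 clones; exact two-sided sign-flip permutation test, p = 0.25). Median peak widths were 230, 142 and 174 bp in gene bodies and 343, 145 and 186 bp at gene ends, narrower in 3 of 3 clones (gene body minus gene end, mean -42.7 ± 61.1 bp, SD, n = 3 clones; same exact test, p = 0.25). With 3 clones this test cannot go below 0.25, so none of these differences could pass a threshold of 0.05. Distance to a gene end was taken from a region's edges, so wider regions came within 1000 bp of an end more readily. Width thus entered the split into the 2 classes. Fold came from the same peak calls that chose the regions, whose lowest −log10 q was 2.00 in each clone. Over a lower background, a higher fold is needed to reach a given q. The cut on q thus entered the fold difference as well. Median folds lay further apart in clones 2 and 3 than in clone 1, and median widths lay furthest apart in clone 1. Without clone 2 the fold difference was 0.0882, over 308 gene-body regions required in clones 1 and 3. Without clone 1 the width difference was -17.8 bp, over 397 regions required in clones 2 and 3. These are other sets of regions, so the values do not isolate what a clone contributed.

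Whether regions chosen in 2 clones were also found in the remaining clone was measured next, since its calls were not required in choosing them. Its peaks did enter the merging, so they could join peaks of the other 2 clones and set a region's edges and class. The choice was therefore not fully independent of the remaining clone. The strongest peaks of clones 2 and 3 did not overlap each other in 23 of 397 gene-body regions and 85 of 914 gene-end regions. Of gene-body regions of clones 2 and 3, 69.0% had a peak in clone 1 (exact 95% binomial interval 64.2% to 73.5%, 397 regions), against 93.1% of gene-end regions (91.3% to 94.7%). Of those of clones 1 and 3, 89.0% (84.9% to 92.2%, 308 regions) had a peak in clone 2, against 83.3% at gene ends (80.8% to 85.5%). The gene-body share was thus below the gene-end share in clone 1, with intervals that do not overlap, and above it in clone 2, with intervals that do. Of those of clones 1 and 2, 15.6% (13.9% to 17.4%, 1757 regions) had a peak in clone 3, against 22.5% at gene ends (21.2% to 23.8%). The mean difference between gene body and gene end was -8.42 ± 15.0 percentage points (SD, n = 3 clones, exact two-sided sign-flip permutation test, p = 0.5), so the direction did not hold across clones. The 3 values reuse the same clones and the intervals cover counting error only.

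**Figure D3:**
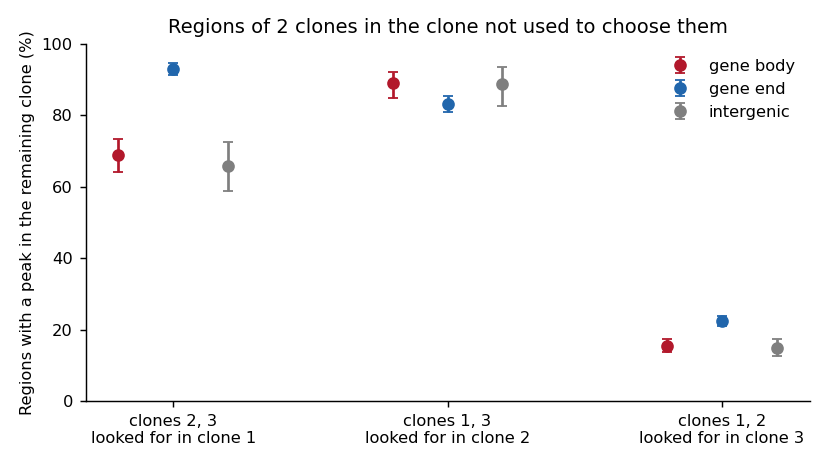
Share of regions of 2 clones that also have a peak in the remaining clone (vertical axis, %), with exact 95% binomial intervals, for gene-body, gene-end and intergenic regions. Gene-body shares (69.0%, 89.0% and 15.6%) lie beside intergenic shares (66.0%, 88.9% and 14.9%), and gene-end shares are 93.1%, 83.3% and 22.5%.

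Recovery in clone 3 followed the strength of the peak in clones 1 and 2. When regions of both clones were split into 4 groups by rank, 29.3% of the strongest gene-body regions were found in clone 3, then 17.6%, 13.4% and 7.09%. Gene-end regions gave 40.7%, 21.4%, 15.2% and 6.78%. The intervals of gene body and gene end were apart in the strongest group (24.5% to 34.5% and 37.8% to 43.7%) and overlapped in the other 3. Intergenic regions of the strongest group gave 40% (32.1% to 48.3%), near the gene-end share.

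The label of gene body was then checked against transcript starts. RefSeq's promoter table lists several starts for many genes, and 5343 of its 300-base windows start inside a gene body as defined here. Of the 1882 gene-body regions on chromosomes with listed starts (the 32 on chromosome 8 were not analysed here), 219 overlapped such a window, which is 11.6% (exact 95% binomial interval 10.2% to 13.2%). These windows take up 0.110% of gene-body sequence. That is a share of bases, whereas 11.6% counts regions with any overlap, so the 2 are not like measures. The share of regions with such an overlap was 15.2% (11.1% to 20.0%) for regions of all 3 clones and 11.0% (9.55% to 12.7%) for regions of 2. Within the latter it was 11.4% (9.78% to 13.1%) in clones 1 and 2, 17.2% (5.85% to 35.8%) in clones 1 and 3 and 5.74% (2.34% to 11.5%) in clones 2 and 3. Gene-body regions of clone 1 alone reached 12.4%, whereas those of clone 2 alone gave 1.93% and those of clone 3 alone 1.73%. The share thus went with a peak in clone 1 more than with the number of clones. Seen from the windows, 255 of 5343 (4.77%) were overlapped by a gene-body region shared by clones. Most gene-body regions therefore lay away from any listed start, with a median distance of 13061 bp to the nearest.

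**Figure D4:**
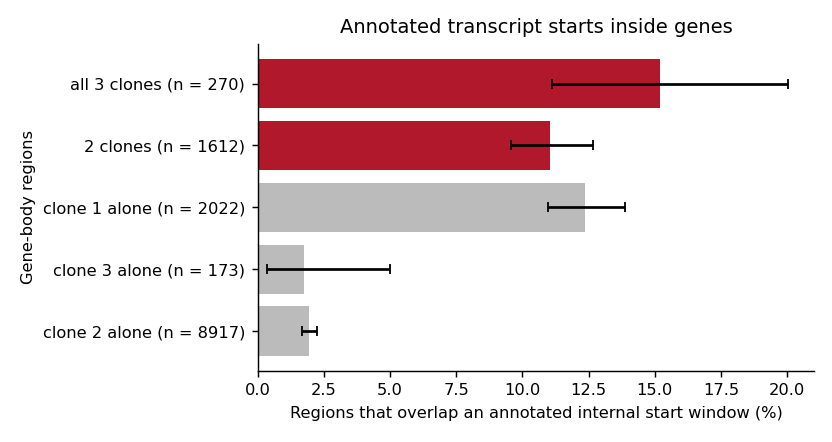
Share of gene-body regions that overlap an annotated internal start window (horizontal axis, %), with exact 95% binomial intervals, by the clones that have the peak. Regions of 2 clones (11.0%), of all 3 clones (15.2%) and of clone 1 alone (12.4%) stand apart from regions of clone 2 alone (1.93%).

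Regions at internal starts had lower median folds and wider peaks than the rest of the set in each clone, a difference that 3 clones cannot carry past a threshold of 0.05. Their median fold was 3.35, 3.73 and 2.83 in clones 1, 2 and 3, against 3.43, 4.21 and 3.49 for the other regions, lower in 3 of 3 clones. The mean difference was -0.409 ± 0.296 (SD, n = 3 clones; exact two-sided sign-flip permutation test, p = 0.25). Median widths were 332.5, 146.5 and 208 bp at internal starts and 217, 142 and 170.5 bp elsewhere, wider in 3 of 3 clones by 52.5 ± 57.0 bp (same exact test, p = 0.25). A wider region overlaps a window of fixed length more readily, so width entered this split too. The share found in the remaining clone was 85.4%, 89.1% and 19.8% at internal starts and 66.6%, 90.5% and 15.0% elsewhere, a difference of 7.41 ± 10.4 percentage points (exact test, p = 0.5).

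The internal start windows under gene-body regions were rich in G, C and CpG. Their median G+C content was 65.3% and their median ratio of observed to expected CpG 0.814, against 51.3% and 0.314 in the 4548 internal windows with no clone's peak. Windows under shared gene-end regions had 66.0% and 0.882. A GC box was in 67.8% of internal windows with a gene-body region, in 28.1% of those with no peak and in 45.0% of all 34961 windows. The CCAAT box gave 46.7%, 31.6% and 34.6%, and the ETS motif CCGGAAG gave 17.3%, 3.89% and 10.3%. Windows under shared gene-end regions had a GC box in 77.0%, a CCAAT box in 46.1% and CCGGAAG in 23.4%, so these shares were not particular to internal windows. These 3 promoter motifs were added after the data were seen. No windows matched for G+C content were compared, so whether the shares of these motifs follow base composition was not tested.

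Of the 5 motifs of myeloid and architectural factors, the PU.1-type ETS motif was in 12.9% of internal windows with a gene-body region, 8.16% of those with no peak and 8.26% of all windows. AP-1 went the other way, with 5.49%, 9.89% and 7.68%. RUNX gave 4.71%, 5.26% and 4.28%, C/EBP 24.7%, 38.9% and 33.1%, and the CTCF core 17.6%, 12.2% and 14.4%. Windows under shared gene-end regions gave 8.14% for PU.1-type ETS, 3.30% for AP-1, 2.64% for RUNX, 27.6% for C/EBP and 19.3% for the CTCF core. AP-1 and C/EBP motifs were thus also less frequent there than in internal windows with no peak. AGGAAGT was thus the only motif of a myeloid factor among the 4 searched that was more frequent under gene-body regions than in windows with no peak.

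Host genes numbered 1658, of which 1368 were protein-coding, 6.85% of all protein-coding genes, and 290 were lncRNA genes, 1.60% of theirs. Most hosts (1373) held 1 region, 216 held 2, 45 held 3 and the remainder 4 to 7. Long genes hosted more often: the median length was 62.0 kb for protein-coding hosts and 22.4 kb for other protein-coding genes. Per length the order turned round, from 4.98 regions per Mb of gene body in genes under 10 kb to 0.414 in genes over 300 kb. Median distance to the nearest gene end was 8574 bp, and 32 regions lay over 100 kb from one. Within hosts of known strand (1596 regions), 28.0% of regions lay in the 25% of the gene nearest its 5′ end and 22.7% in the 25% nearest its 3′ end, and without regions at internal starts the shares were 25.3% and 24.8%.

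Gene-end peaks were called in a minority of hosts. Of the 1368 protein-coding hosts, 391 (28.6%) had a peak at a gene end in 2 or more clones, against 22.9% of the other protein-coding genes and 23.3% of all. The share was higher in hosts in each of 5 length classes, for example 34.7% against 20.7% under 10 kb and 18.1% against 9.32% over 300 kb. In lncRNA genes, 19.0% of hosts and 6.51% of other genes had one.

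The hosts with most regions were MAD1L1 with 7, CCND3, RAP1GAP2 and UBXN11 with 6 each, and ACTN4 with 5, as had INPP4A and RAB27A. CCND3, the cyclin D3 gene, held its 6 regions within chr6:41936172-42044440. The 5 with a peak in clone 1 had folds of 2.80 to 4.03 there, and all 6 had folds of 2.48 to 6.20 in clone 2. None of them was in all 3 clones, and the one at chr6:41941582-41942159 lay at an annotated internal start of CCND3. UBXN11, a gene of 36.1 kb that encodes a UBX-domain protein, was the most evenly shared: 4 of its 6 regions were in all 3 clones. The strongest in clone 2, at chr1:26288632-26289650, had folds of 3.49, 5.51 and 3.96. Its neighbour at chr1:26289771-26290006 had folds of 5.13, 5.14 and 4.48. RAP1GAP2, a regulator of the GTPase Rap1, had 6 regions of which none was in all 3 clones, and no peak at its 5′ end in any clone. Its region at chr17:2796203-2796441, at an internal start, had folds of 3.47 and 5.91 in clones 1 and 2.

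Gene-body regions overlapped 8 microRNA hairpins, of which 5 lay wholly inside the region. Mature sequences of 3 of these 5 are given to show which microRNA genes sit in the accessible stretch, with the seed (bases 2 to 8) in capitals, from RefSeq GRCh38.p14.
hsa-miR-143-5p: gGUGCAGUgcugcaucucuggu
hsa-miR-143-3p: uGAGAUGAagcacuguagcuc
hsa-miR-3175: cGGGGAGAgaacgcagugacgu
hsa-miR-658: gGCGGAGGgaaguagguccguuggu
None of these 4 shares a seed with another. MIR143, a microRNA gene best known from smooth muscle, lies at chr5:149428918-149429023 inside the lncRNA gene CARMN, and its region had folds of 3.58 and 3.56 in clones 1 and 2. MIR3175 lies in CHD2, a chromatin remodeller gene, at chr15:92904399-92904475, with folds of 2.70 and 3.97. MIR658 lies in ANKRD54 at chr22:37844272-37844371, with folds of 2.25 and 2.68. The other 2 inside a region were MIR4496 and MIR639, and MIR639, at chr19:14529543-14529640 in DNAJB1 and TECR, was the only one in all 3 clones, with folds of 2.18, 2.82 and 2.29. Small RNA was not measured, so these are positions only. Hairpins in gene bodies outside the shared regions were not counted, so the 8 cannot be read against a background.

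Genes of myeloid and signalling function were examined by list, each beside the 6.85% of protein-coding genes that host a region and the 1.38 regions per Mb of their gene bodies. Both values vary with gene length. Hosts rose from 1.33% of protein-coding genes under 10 kb to 16.5% over 300 kb, as density fell from 4.98 to 0.414 per Mb. Median length was 24.2 kb for all protein-coding genes and 13.7 kb for the myeloid transcription factors. It was 103 kb for the haematopoietic, 134 kb for the chromatin and 1208 kb for the long neuronal list. No length-matched share was computed, so the list values are not adjusted for length. Among 20 myeloid transcription factor genes, 4 were hosts (20.0%; 7.66 regions per Mb): SPI1, RUNX1, FOSL2 and RXRA, with 9 regions in all. SPI1 encodes PU.1, the lineage factor of monocytes and granulocytes. Its region at chr11:47359729-47359967 lay 4869 bp from the gene's nearer end, with folds of 2.78, 4.21 and 2.76, and no clone had a peak within 1000 bp of either end of SPI1. RUNX1, a regulator of blood stem cells, held 2 regions. The region at chr21:35026809-35027062 was in all 3 clones, with folds of 4.37, 3.54 and 3.47, and that at chr21:34908499-34908861 in clones 1 and 2, with 5.04 and 3.33.

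RXRA, the retinoid X receptor gene, held 3 regions, of which chr9:134371805-134372302 was in all 3 clones with folds of 4.18, 3.56 and 2.77. FOSL2, an AP-1 subunit gene, held 3 in clones 1 and 2, with folds of 2.88 to 3.21 in clone 1 and 2.79 to 5.15 in clone 2. Of 24 haematopoietic and leukaemia regulators, 6 (25%; 2.11 per Mb) held 1 region each: MEIS1, ETV6, ERG, IKZF1, RUNX3 and ZEB2. ETV6, a repressor of the ETS family, had the highest folds of these, 5.94 and 5.54 in clones 1 and 2 at chr12:11855289-11855782. RUNX3 alone was in all 3 clones, with folds of 2.55, 4.11 and 2.63 at chr1:24955223-24955423. At a stricter −log10 q of 5 or more, 0 of the 20 myeloid transcription factors and 2 of the 24 haematopoietic regulators were hosts, beside 2.71% of all protein-coding genes at that setting. With all 3 clones required, 3 of the 20 and 1 of the 24 were hosts, beside 1.19% of all protein-coding genes.

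Monocyte surface receptors gave 5 hosts of 30 (16.7%; 6.67 per Mb): ITGAM, FCER1G, PTPRC, PTPRE and SIRPA. SIRPA, the inhibitory receptor for CD47, held 3 regions, and 2 of them were in all 3 clones. These lie close together, at chr20:1908726-1908972 with folds of 3.02, 3.75 and 3.02 and at chr20:1909148-1909421 with folds of 3.51, 4.34 and 2.97. ITGAM, the integrin subunit CD11b, had folds of 3.74 and 3.44 in clones 1 and 2 at chr16:31302092-31302322, and no peak there in clone 3. Azurophil granule proteins gave 0 hosts of 16, in 0.134 Mb of gene body. CTSG, ELANE and PRTN3, the genes depleted in the clones, hosted no region. They had no gene-body peak in any clone, CTSG had a gene-end peak in clone 2 alone, and peak calls do not show whether a gene was disrupted.

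Immune signalling genes gave 10 hosts of 30 (33.3%; 6.51 per Mb) with 15 regions: SYK, FGR, PLCG2, VAV1, PIK3R5, PTPN6, STAT5B, NFKB2, PRKCB and PRKCD. FGR, a Src-family kinase of myeloid cells, held a region of all 3 clones at chr1:27618426-27618629 with folds of 4.02, 8.24 and 3.88. The highest value in this list was in NFKB2, the p100 precursor of NF-κB p52, at chr10:102399381-102399766, with folds of 4.64 and 8.95 in clones 1 and 2. In both, clone 2 stood far above clone 1. PRKCD, protein kinase C delta, had folds of 3.46, 5.37 and 2.48 at chr3:53169131-53169675. VAV1, an exchange factor of Rac, had 3.61, 4.37 and 3.85 at chr19:6801479-6801974.

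Chromatin regulators gave 9 hosts of 40 (22.5%; 1.75 per Mb), among them SMARCA4, ARID1A, CHD2, KMT2D, KDM2A, KDM4B, EHMT1 and DNMT3A. KDM2A, a demethylase with a CpG-binding domain, had its region of all 3 clones at an internal start, at chr11:67239762-67240130 with folds of 3.39, 2.78 and 2.89. EHMT1, an H3K9 methyltransferase, had folds of 2.87, 5.73 and 3.94 at chr9:137628635-137628862. Among genes of other lineages, 3 of 30 lymphoid genes (10.0%; 0.609 per Mb) were hosts, BACH2 and PRKCQ among them. Long neuronal genes gave 2 of 30 (6.67%), CDH13 and EYS, and 0.0472 regions per Mb over 42.4 Mb of gene body, the lowest density of the lists with any host. All protein-coding genes over 300 kb had 0.414 regions per Mb, and 16.5% of them were hosts. None of the 5 lymphoid and neuronal hosts held a region of all 3 clones, as 17.3% of all protein-coding hosts did, which leaves 5 genes too few to read. The labelled cell type was checked at 10 monocytic markers: 2 (ITGAM and CD68) had a peak at a gene end in 2 or more clones, against 23.3% of all protein-coding genes, so the markers did not stand apart and the check does not bear on the label. Of the 10, 6 had one in at least 1 clone and SPI1, LYZ, MPO and FCGR1A in none. The share of all protein-coding genes with one in at least 1 clone was not counted, so the 6 cannot be read against it. By clone, 39.1%, 29.6% and 6.55% of all protein-coding genes had one in clones 1, 2 and 3.

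Gene-body regions were spread unevenly over chromosomes. Their density was 1.25 per Mb of gene body in all, with the highest values on chromosomes 19 (5.01), 20 (3.37) and 15 (2.52) and the lowest on X (0.235), 8 (0.415) and 4 (0.437). The density of shared gene-end regions per Mb of gene-end sequence went with it, with Spearman's rank correlation of 0.85 over 23 chromosomes, which share libraries and gene density. Clones differed on some chromosomes. Clone 2 had 7.07 gene-body regions per Mb in all and 2.58 were in clone 1, yet on chromosome 8 clone 2 had 1.19 and clone 1 had 2.40, and on X clone 2 had 1.38 and clone 1 had 1.59. On chromosome 21 clone 2 had 19.0 against 2.12 in clone 1, and on chromosome 15 it had 17.4 against 3.35. It is unknown whether the lists analysed here are complete on chromosome 8, and copy number of the clones was not tested.

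**Figure D5:**
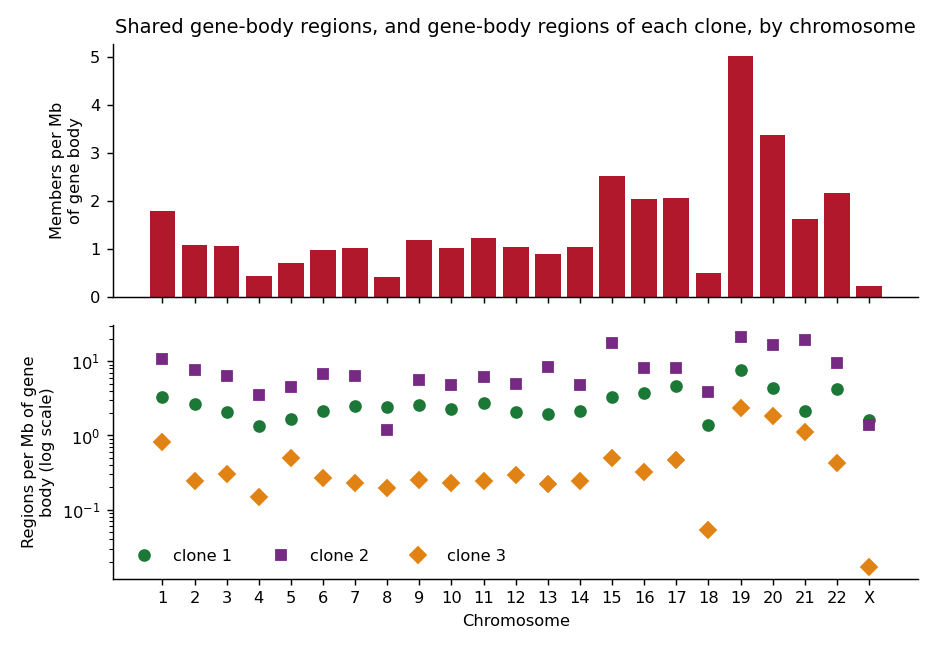
Density of shared gene-body regions (upper panel, members of the set per Mb of gene body) and of gene-body regions with a peak in each clone (lower panel, per Mb, log scale) by chromosome. Chromosome 19 reaches 5.01 in the upper panel, and clone 2 falls below clone 1 on chromosome 8 and X.

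At the distance limit, the 3 regions just inside lay in LOC124903949, ADTRP and HCG24, each 1005 bp from a gene end. Their folds in clones 1 and 2 were 2.84 and 4.03, 2.63 and 3.55, and 3.62 and 4.27. The 3 just outside, in SH3PXD2A, CORO1A and TUT4, lay 1000, 995 and 994 bp from one, with folds of 3.72 and 3.33, 3.82 and 3.80, and 2.35 and 3.44. Folds on the 2 sides of the limit overlapped.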

How the data were processed

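ATAC-seq peak lists of 6 libraries were analysed, 1 list for each library, named by group and replicate from the sample titles. Per the submitters' processing notes, FastQC, Bowtie2, Picard and MACS2 were used with build GRCh38; the sources used here give no versions or settings, nor whether reads were shifted for the transposase. The authors deposited for each summit a fold enrichment over local background (a ratio), −log10 p and −log10 q values, and an integer score that was not used. Peaks were called per library, so a region counts as absent where no peak passed the authors' threshold, and total reads per library are unknown.

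Several summits in 1 interval were reduced to that of highest −log10 q, and 127 negative summit offsets were set to 0. Intervals on chromosomes 1 to 22 and X were merged at 1 bp of overlap and placed against 38151 RefSeq genes. Pile-up and background were solved from fold and p, within 0.02 in −log10 p. Values per clone were compared by exact two-sided sign-flip permutation tests over the 3 clones. Those p-values measure only the spread between these libraries. Binomial intervals are exact Clopper-Pearson. Code was tested on simulated data and run with Python 3.11.15, numpy 2.4.6, pandas 2.3.3 and scipy 1.17.1.

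Gene strand came from the promoter table for 71.3% of genes, so gene-end peaks were counted at either end. Motifs, first intended for the regions themselves, were searched in 300-base RefSeq promoter windows. The regions, gene lists and tests were chosen with earlier results of these data known. Genes named are the 12 highest-ranked regions of all 3 clones, the 5 hosts with most regions (ties by symbol), the 5 regions with the highest fold by the lower of their 2 highest clone values, list members, regions with a control peak, the 3 on each side of the 1000 bp limit and the 3 depleted genes. The microRNA genes were named after their values were seen. Alternatives were stricter peaks, other distances and overlaps, position by summit, protein-coding genes only, equally long lists, each clone left out and all 3 clones required. Some regions, genes and lists that this rule names are not reported here.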

Additional observations from a re-analysis of the deposited data

How the results depend on the processing

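The mean differences in recovery, fold and width kept their sign under each alternative tried, but not in every clone. The difference in recovery in the remaining clone ran from -10.03 to -1.04 percentage points over 9 alternatives, the difference in median fold from 0.0882 to 0.552 and that in median width from -75.3 to -17.8 bp over 13 each. Fold was higher in gene bodies in 2 of 3 clones, not 3, with a fold of 4 or more (difference 0.136) and with all 3 clones required (0.237), and in 1 of 2 without clone 2. Width was then higher in 1 of 3 clones under the first 2 of these settings. The number of gene-body regions, 1914, became 663 with peaks of −log10 q of 5 or more, 370 with a fold of 4 or more, 207 with lists cut to 2188 peaks in each clone and 274 with all 3 clones required, and between 308 and 1757 with 1 clone left out. The share of protein-coding hosts with a gene-end peak, 28.6%, became 16.5%, 7.03%, 11.3% and 9.70% under the same 4 settings, 24.9% and 34.2% with a limit of 500 and 2500 bp, and between 9.81% and 26.8% with 1 clone left out. It stayed above that of other genes under each of the 13 alternatives, for example at 9.70% against 5.35% with all 3 clones. List genes that host a region, 53 in all, became 14 with all 3 clones and 23 with −log10 q of 5 or more, since fewer regions entered. At the latter setting the myeloid transcription factor, lymphoid and long neuronal lists had 0 hosts. The share of all protein-coding genes was 2.71% there and 6.85% in the main setting. At 2.71%, the 20 myeloid transcription factor genes are too few for 0 hosts to be read as below that share. With all 3 clones required, 3 of these 20 genes were hosts, beside 1.19% of all protein-coding genes. Counting starts within 1000 bp of a region, an alternative added after seeing the data, raised the share at internal starts from 11.6% to 14.4%. With gene-body regions near internal starts left out, also added later, the fold difference was 0.371. No paired analysis was possible because control lines and clones share only a number, and no test compared the 2 groups. Precision is limited by 3 clones, by the 2188 peaks of clone 3 and by unknown read depth.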

Other observations

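Other kinds of RefSeq gene lay within 1000 bp of 49 gene-body regions (2.56%), close to the 2.21% of gene-body regions with a peak in 1 clone. The nearest such gene was a microRNA gene for 18 of these regions, a pseudogene for 13, a transcribed pseudogene for 7 and a tRNA gene for 4.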
